A study of Mus musculus with 7 samples.

Results

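The genes described here are 10 genes of the recovery and calcium feedback arm of phototransduction: Guca1a, Guca1b, Gucy2e, Rcvrn, Rgs9, Rgs9bp, Gnb5, Grk1, Slc24a1 and Pdc. The regions described are the H3K18La peaks that the deposited annotation assigned to these gene symbols. There were 46 such peaks of 108253 in the merged peak set, and 9 of the 10 genes had at least 1. Of the 46, 10 were promoter peaks, a pair of them at Gnb5, and 36 lay outside promoters. For each gene the promoter peak nearest the transcription start site (TSS) was taken first, which gave 9 promoters to set beside those of 9956 protein-coding genes. Rgs9bp had no peak under its own symbol.

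After light has activated the visual pigment of a photoreceptor, the pigment activates the G protein transducin, cyclic GMP falls, cyclic GMP-gated channels close and less calcium enters the cell. Recovery reverses each step. Grk1, the kinase that phosphorylates activated visual pigment, starts pigment shut-off and is held back by recoverin (Rcvrn) when calcium is high. The complex of Rgs9, the long Gβ5 subunit (Gnb5) and the membrane anchor Rgs9bp speeds GTP hydrolysis by transducin. Gucy2e is a retinal guanylate cyclase that restores cyclic GMP, and the calcium sensors Guca1a and Guca1b activate it when calcium falls. Slc24a1 exchanges sodium for calcium and potassium and removes calcium from the rod outer segment. Pdc (phosducin) binds the βγ subunits of transducin. H3K18La, lactylation of lysine 18 of histone H3, is a mark found at active promoters, and its level at a gene is not a measure of the RNA made from it.

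H3K18La was profiled in whole retinas by CUT&Tag, which cuts and tags DNA where an antibody has bound the mark. The retinas were those of C57Bl/6J mice and had been dissociated into single cells. The series holds 2 libraries at postnatal day 4 (P4), 2 at P10 and 3 at P28, and no group was treated. All libraries were of batch 1 except P28 replicate 1, which was of batch 2. The submitters describe the assays as biologically replicated without saying which animals entered each library. Values are RPKM, the reads in a peak scaled by its width and by a normalised library size. Each is thus a mean over the called peak and depends on where the edges of the peak were set. The promoter peaks nearest the TSS ran from 540 bases (Pdc) to 2719 (Rgs9), so an order of levels between peaks or genes is approximate.

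Reads in peaks ranged from 199970 (P10 replicate 1) to 8274373 (P28 replicate 2). P28 replicate 1 stood apart from the other P28 libraries, with a chi-square of its reads in bins of 1 Mb, divided by the degrees of freedom, of 3.59 and 3.70 against them and 1.52 between those 2. Reads in peaks made up 16.3% and 17.6% of the normalised size of the P4 libraries and 36.1% to 57.1% of the later ones, which matters for every comparison with P4. Of 5 rod marker genes, 4 had a promoter peak and none of these was at 0 in any library. Their summed RPKM was 12.7 and 13.1 at P4, 120.5 and 99.04 at P10, and 62.2, 85.8 and 90.2 at P28. Of the lists for other cells, 1 of 1 amacrine gene with a promoter peak (of 4 listed) and 1 of 3 Mueller glia genes (of 5) also rose from P4 to P28, where 33.8% of protein-coding promoters did. The amacrine gene, Slc6a9, had 1.14 and 1.496 RPKM at P4, 7.24 and 13.8 at P10, and 10.9, 14.9 and 16.6 at P28, and the Mueller glia sums were 5.83 and 5.36, then 15.0 and 13.1, then 17.96, 17.3 and 21.1. In the bipolar (3 of 5 genes with a promoter peak), progenitor (3 of 6), ganglion cell (2 of 5), endothelium (2 of 3), microglia (1 of 4) and pigment epithelium (1 of 5) lists no gene rose at 0.01, and no sum exceeded 9.92 RPKM in any library. In whole retina, a larger share of rods and more of the mark per rod cannot be told apart, and the part of the shares of rods and of these other cells in the results below was not tested.

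H3K18La at the promoters of these genes was higher in the mature retina than at P4. At P28 it was above P4 at 9 of 9 promoters, by 1.93 to 4.24 on the log2(RPKM + 1) scale (limma over all peaks, Benjamini-Hochberg adjusted p under 0.01), where 33.8% of the 9956 protein-coding promoters passed in that direction. The median change was 3.16 for the 9 promoters and 1.36 for all protein-coding promoters. In each of the 9, all 3 P28 libraries lay above both P4 libraries, as they did at 79.9% of protein-coding promoters. By P10, 7 of the 9 promoters had already passed the test against P4, against 12% of protein-coding promoters, and the other 2 were Guca1a and Gucy2e. That count was 4 without either of the P4 libraries, when Pdc, Rcvrn and Rgs9 were lost as well, and 5 without P28 replicate 1. Both P10 libraries lay above both P4 libraries at all 9 promoters, and at 46.3% of protein-coding promoters. Over the 3 ages together the moderated F-test passed at 9 of 9, against 29.9%.

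These calls rest on few reads at P4. The merged set holds peaks called at any of the 3 ages. A promoter with hardly any P4 reads is therefore likely to have entered it through a later age, where it is high. A rise from P4 at such a promoter is partly set by that choice of peaks, here and among all promoters. At 5 of the 9 promoters (Guca1b, Rcvrn, Gnb5, Slc24a1 and Pdc) each P4 library had 3 reads or fewer, and a ratio of pooled reads with its 95% interval (Clopper-Pearson, counting error only) is therefore given below for them. With each library scaled to its reads in peaks, the median change over all peaks moved from 0.68 to -0.29, all 9 promoters stayed above P4, and 7 of them passed, without Grk1 and Rgs9. Without P28 replicate 1, and so within batch 1, 9 of 9 passed against P4 at P28, with changes of 1.99 to 4.36.

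**Figure D1:**
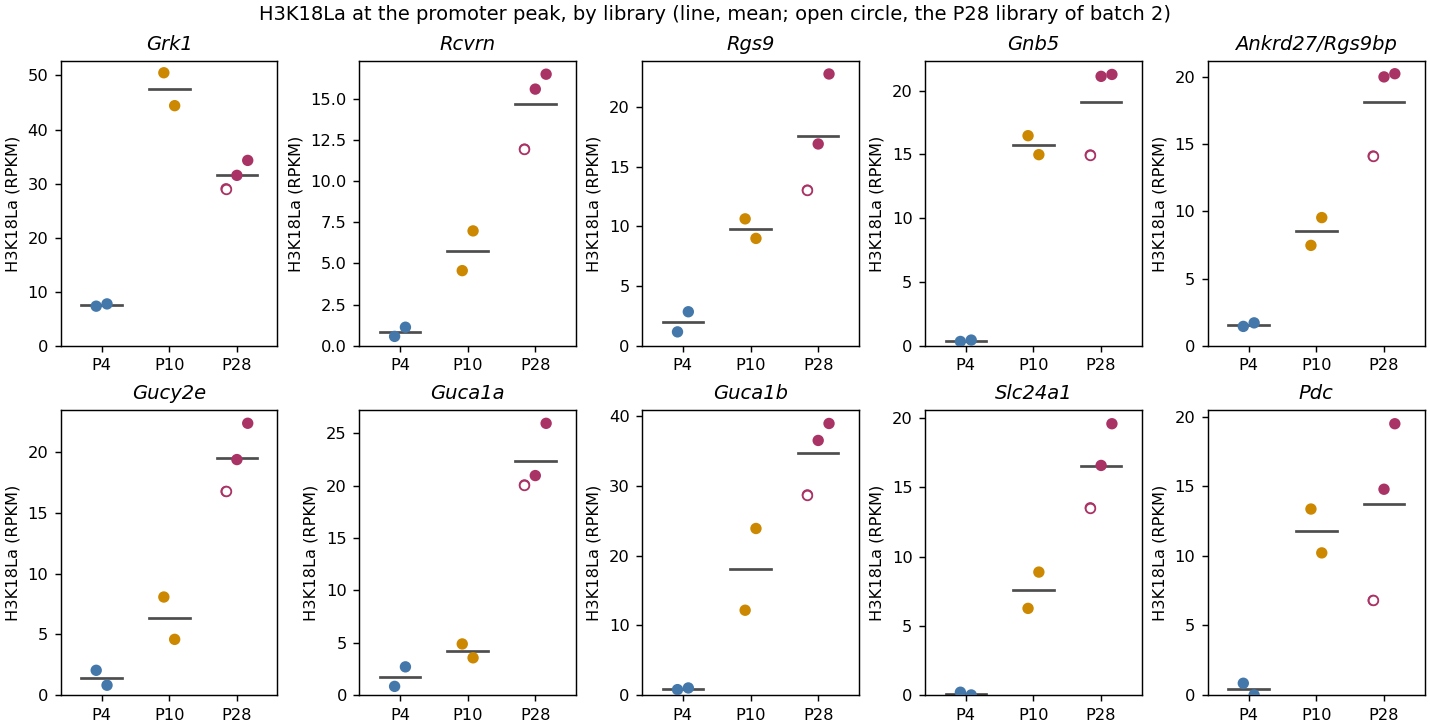
H3K18La (RPKM, vertical axis, each panel on its own scale) at the promoter peak of 9 recovery genes and at the Ankrd27 promoter peak that also covers the start of Rgs9bp, in each library at P4, P10 and P28 (horizontal axis). Points are libraries, lines are means and the open circle is the P28 library of batch 2. Grk1 is the panel in which both P10 points lie above all 3 P28 points.

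RefSeq promoter windows, from 250 bases before to 50 after the start on GRCm38.p6, were matched for 7 of the 10 genes (the table used holds none for Guca1b, Rcvrn and Rgs9bp). At 6 of the 7 the whole window lay inside the H3K18La promoter peak, and at Rgs9 261 of its 300 bases did. GC content ran from 38.0% (Pdc) to 60.3% (Rgs9), with a median of 52.7% over 32851 windows. The number of CpG dinucleotides was 2 at Grk1 and at Pdc and 19 at Rgs9, with a median of 7 over all windows. The letters TAATCC, the core that the photoreceptor factor CRX recognises, occurred on either strand in 3 of the 7 windows (Guca1a, Gucy2e and Gnb5) and in 7.06% of all windows. The other motifs searched on both strands were TGCTGA, a core of the NRL element, found in 2 of 7 (Rgs9 and Grk1) and 19.5% of all windows, AGGTCA, a core of the ROR element, found in 2 of 7 (Guca1a and Gnb5) and 16.3%, and GGGCGG, the GC box, found in 2 of 7 (Gucy2e and Rgs9) and 35.7%. No motif overlapped another in these windows, and a match of letters does not show binding. Below are the Guca1a, Gucy2e and Gnb5 windows, because they share the CRX core. The Grk1 window is added, because among the members only the Grk1 promoter was higher in both P10 libraries than at P28. Each is printed 5′ to 3′ on the gene's strand, with the matches in capitals. A match on the opposite strand therefore reads as its reverse complement. Guca1a is chr17:47400557-47400856 on the minus strand, Gucy2e chr11:69236973-69237272 on the minus strand, Gnb5 chr9:75306038-75306337 on the plus strand and Grk1 chr8:13404831-13405130 on the plus strand.
Guca1a: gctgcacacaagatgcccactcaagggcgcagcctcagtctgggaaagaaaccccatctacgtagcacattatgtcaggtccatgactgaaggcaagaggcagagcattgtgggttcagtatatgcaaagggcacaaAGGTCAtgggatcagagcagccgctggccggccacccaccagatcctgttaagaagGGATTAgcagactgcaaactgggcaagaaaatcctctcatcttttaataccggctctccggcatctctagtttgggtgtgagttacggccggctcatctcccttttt
Gucy2e: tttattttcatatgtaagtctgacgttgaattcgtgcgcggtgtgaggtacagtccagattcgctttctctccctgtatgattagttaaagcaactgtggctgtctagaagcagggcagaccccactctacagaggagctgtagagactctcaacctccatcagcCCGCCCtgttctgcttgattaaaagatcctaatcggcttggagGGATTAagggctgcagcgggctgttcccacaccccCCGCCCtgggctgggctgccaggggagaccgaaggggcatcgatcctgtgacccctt
Gnb5: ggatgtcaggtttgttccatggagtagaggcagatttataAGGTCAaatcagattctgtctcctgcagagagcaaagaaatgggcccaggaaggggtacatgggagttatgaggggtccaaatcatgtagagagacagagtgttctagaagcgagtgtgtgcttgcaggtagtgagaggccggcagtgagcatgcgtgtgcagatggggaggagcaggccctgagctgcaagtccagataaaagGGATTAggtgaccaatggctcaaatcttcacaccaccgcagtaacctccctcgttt
Grk1: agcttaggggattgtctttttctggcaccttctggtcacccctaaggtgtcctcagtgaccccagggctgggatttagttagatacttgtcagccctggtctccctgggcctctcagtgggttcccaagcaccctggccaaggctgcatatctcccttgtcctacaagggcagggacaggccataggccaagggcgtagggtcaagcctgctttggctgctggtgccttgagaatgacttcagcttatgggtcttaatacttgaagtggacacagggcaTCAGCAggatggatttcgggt
The CRX core begins at position -57 from the start in Guca1a, -42 in Gucy2e and -6 in Gnb5, each time on the strand opposite to the gene. The NRL core of Grk1 begins at position 29, after the start.

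Grk1, the pigment kinase, was the member with the most H3K18La at P4 and at P10. Its promoter peak (chr8:13402949-13405486) had 7.34 and 7.76 RPKM at P4, 50.5 and 44.4 at P10, and 29.0, 31.5 and 34.3 at P28. The replicates of each age lay close together, and the P10 libraries lay above the P28 libraries without overlap. Such an order was seen at 1 of the 9 promoters and at 5.84% of protein-coding promoters. It is not particular to Grk1, being found at 2 of 4 rod marker promoters (Nr2e3 and Nrl) and 1 of 7 of the activation cascade (Pde6g). Nr2e3 had 69.4 and 59.3 RPKM at P10 and 30.2, 32.8 and 36.0 at P28 (-0.94 ± 0.24, SE, adjusted p = 0.031, limma). The Grk1 change was 2.50 ± 0.25 (SE) from P4 to P10 (adjusted p = 0.000446). From P10 to P28 it was -0.57 ± 0.23 (adjusted p = 0.12, limma, 2 and 3 libraries), so the step down did not pass the test. Its mean at P10 was 150.1% of its mean at P28. With quantile normalization its rise from P4 to P28 was 0.09 instead of 1.93, its rise to P10 was 0.37 instead of 2.50 (adjusted p = 0.186), and neither passed.

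Grk1 already carried a high level at P4. Among the 9956 protein-coding promoters its mean P4 level stood at percentile 99.4, whereas the other 8 members stood between percentiles 2.6 (Slc24a1) and 61.7 (Rgs9). It also had the most P4 reads of the members, 41 and 33, and its rise is the best counted, a pooled read ratio of 4.23 from P4 to P28 with a 95% interval of 3.35 to 5.40. That interval covers counting error only, and scaled to reads in peaks the Grk1 change to P28 was 0.49 instead of 1.93. In the main fit its rise ranked 2386 of 9956, and those of Guca1b, Slc24a1 and Gnb5 ranked 4, 6 and 13. The latter genes had at most 1 read in each P4 library, so the 1 added to RPKM largely sets their rises and exact ranks. Over the 18 alternative fits the Slc24a1 rise ran from 2.07 to 6.58.

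The promoter of Rcvrn, the calcium sensor that restrains Grk1, gained the mark more gradually. This peak (chr11:67694877-67696459) had 0.574 and 1.13 RPKM at P4, 4.56 and 6.97 at P10, and 11.9, 15.6 and 16.5 at P28. Each age lay above the one before it without overlap. The change was 1.86 ± 0.37 (SE) to P10 (adjusted p = 0.0046, passing in 6 of 18 alternative fits) and 3.08 ± 0.34 to P28 (adjusted p = 0.00023), and the P10 mean was 39.3% of the P28 mean. The pooled read ratio of P28 to P4 was 18.7 (7.97 to 57.8), from 5 reads at P4. Rcvrn lies within Glp2r, a gene on the opposite strand, and CUT&Tag reads do not tell the strands apart.

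Of the GTPase-accelerating complex, Rgs9 and Gnb5 both passed against P4 at P10 and at P28, and neither passed from P10 to P28. Rgs9, the catalytic subunit, had 1.17 and 2.85 RPKM at P4, 10.6 and 8.99 at P10, and 13.0, 16.9 and 22.7 at P28 (chr11:109295674-109298392). The 3 ages did not overlap, although P28 ranged widely. Its change was 1.90 ± 0.39 (SE) to P10 (adjusted p = 0.0052, passing in 6 of 18 alternative fits) and 2.65 ± 0.35 to P28 (adjusted p = 0.00051), and without P4 replicate 1 the change to P28 no longer passed. Gnb5 (chr9:75305874-75307189) had 0.345 and 0.453 RPKM at P4, which is 1 read in each library, then 16.5 and 15.0 at P10 and 15.0, 21.1 and 21.3 at P28. P10 and P28 overlapped, and P10 reached 82.3% of P28. The pooled read ratio was 39.4 (10.2 to 337.0) from P4 to P10 and 51.6 (14.2 to 427.1) from P4 to P28.

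A further promoter peak of Gnb5 (chr9:75313752-75314528), at the start of another transcript, had 3.51 and 1.54 RPKM at P4, 4.65 and 10.1 at P10, and 9.79, 10.05 and 9.78 at P28. Its change to P28 was 1.68 ± 0.39 (SE, adjusted p = 0.0073), a call that held in only 5 of 18 alternative fits. It was lost without either P4 library (changes of 2.10 and 1.27), without any 1 of the P28 libraries, and when scaled to reads in peaks (0.44). Within each P4 library this further peak was the higher of the Gnb5 pair, and within each later library the main promoter was the higher.

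For Rgs9bp, the anchor of the complex, the only measure was a peak assigned to the divergent neighbour Ankrd27. The peak (chr7:35583521-35586664) covers the starts of both genes, which lie 661 bases apart, so the signal cannot be assigned to either. It had 1.45 and 1.71 RPKM at P4, 7.46 and 9.53 at P10, and 14.1, 20.0 and 20.2 at P28. These ages did not overlap, and the change to P28 was 2.87 ± 0.30 (SE, adjusted p = 0.000195).

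The cyclase Gucy2e and the sensor Guca1a stood in RPKM at 32.4% and 18.9% of their P28 mean at P10, and the sensor Guca1b at 51.9%. Gucy2e (chr11:69235223-69237459), its single peak, had 2.03 and 0.80 RPKM at P4, 8.07 and 4.58 at P10, and 16.8, 19.4 and 22.4 at P28. No age overlapped another. The change was 1.61 ± 0.39 (SE) to P10 (adjusted p = 0.0107), which did not pass at 0.01, and 1.52 ± 0.35 from P10 to P28 (adjusted p = 0.0257).

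Guca1a and Guca1b encode related sensors and lie tail to tail on chromosome 17, with 1590 bases between the genes, yet their promoters differed at P10. Guca1a (chr17:47400143-47401253) had 0.818 and 2.69 RPKM at P4, 4.87 and 3.55 at P10, and 20.1, 21.0 and 25.96 at P28. Its P10 libraries stood close to P4 and far below P28, at 18.9% of the P28 mean. The change was 1.00 ± 0.40 (SE) to P10 (adjusted p = 0.0771) and 2.17 ± 0.36 from P10 to P28 (adjusted p = 0.0114), and the pooled read ratio of P28 to P10 was 5.56 (2.80 to 12.9). The change to P10 was 0.49 without P4 replicate 1, 1.51 without P4 replicate 2 and 0.08 when scaled to reads in peaks. The change from P10 to P28 passed at 0.01 with a pseudocount of 5, with median centring and with limma voom.

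Guca1b (chr17:47385074-47385667) had 0.765 and 1.00 RPKM at P4, 1 read in each library, 12.2 and 23.9 at P10, and 28.7, 36.5 and 39.0 at P28. No age overlapped another, although the P10 libraries, with 4 and 18 reads, stood far apart. The change was 3.27 ± 0.36 (SE) to P10 (adjusted p = 0.000559) and 0.97 ± 0.33 from P10 to P28 (adjusted p = 0.0739). The change from P10 to P28 was 0.51 without P10 replicate 1 and 1.43 without P10 replicate 2. Its P28 mean, 34.7 ± 5.36 RPKM (SD, n = 3), stood first among the members, and the pooled read ratio of P28 to P4 was 41.4 (11.4 to 342.3).

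Slc24a1, the calcium exchanger, had nearly no reads at its promoter at P4. The peak (chr9:64951133-64953441) held 1 read in P4 replicate 1 and 0 in replicate 2 (0.197 and 0 RPKM), and then 6.25 and 8.88 RPKM at P10 and 13.5, 16.6 and 19.6 at P28. All 3 ages were separate. From P4 to P28 the change was 3.99 ± 0.33 (SE, adjusted p = 0.000113), and the pooled read ratio was 150.4 (26.9 to 5948).

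Pdc, the transducin-binding member, did not separate P10 from P28 (0.10 ± 0.46, SE, adjusted p = 0.893, limma). Its promoter peak (chr1:150319098-150319637) had 0.841 and 0 RPKM at P4, 13.4 and 10.2 at P10, and 6.80, 14.8 and 19.5 at P28. The P28 libraries spread over the whole P10 range, with the batch 2 library the lowest of them, and this peak held only 4 and 7 reads at P10. The change to P28 was 3.33 ± 0.46 (SE, adjusted p = 0.00058) and did not pass without P4 replicate 2. The pooled read ratio was 30.7 (5.45 to 1219), from 1 read at P4.

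From P10 to P28 none of the 9 promoters passed at 0.01 (limma), when 2 of all 108253 peaks did (0.00185%). At an unadjusted p under 0.05 there were 6 of 9, with Grk1 the lower one, where 39.8% of protein-coding promoters had such a p. At 0.01, 1 of the 9 passed with a pseudocount of 5, 1 with median centring and 2 with limma voom on the recovered reads. The shares of all promoters in those fits are not given, so these counts do not set the members apart. At an adjusted p under 0.05 there were 3 of 9, Guca1a, Gucy2e and Rcvrn, all higher at P28. At that threshold 1581 of the 9956 protein-coding promoters and 13.4% of all peaks passed. At 6 of the 9 promoters all P28 libraries lay above both P10 libraries, as at 55.1% of protein-coding promoters. The P10 mean as a share of the P28 mean ran in the order Guca1a 18.9%, Gucy2e 32.4%, Rcvrn 39.3%, Slc24a1 45.7%, Guca1b 51.9%, Rgs9 55.9%, Gnb5 82.3%, Pdc 86.1% and Grk1 150.1%. Much of this order is uncertain, because the P10 libraries differed, with 12.2 and 23.9 RPKM at Guca1b and 8.07 and 4.58 at Gucy2e. P10 reads were also few at Guca1a (3 and 5) and at Pdc (4 and 7). The pooled read ratio of P28 to P10 was 5.56 (2.80 to 12.9) at Guca1a, which overlaps 3.49 (2.31 to 5.53) at Gucy2e. It was 1.31 (0.72 to 2.67) at Pdc and 0.69 (0.60 to 0.79) at Grk1, with intervals of counting error only.

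**Figure D2:**
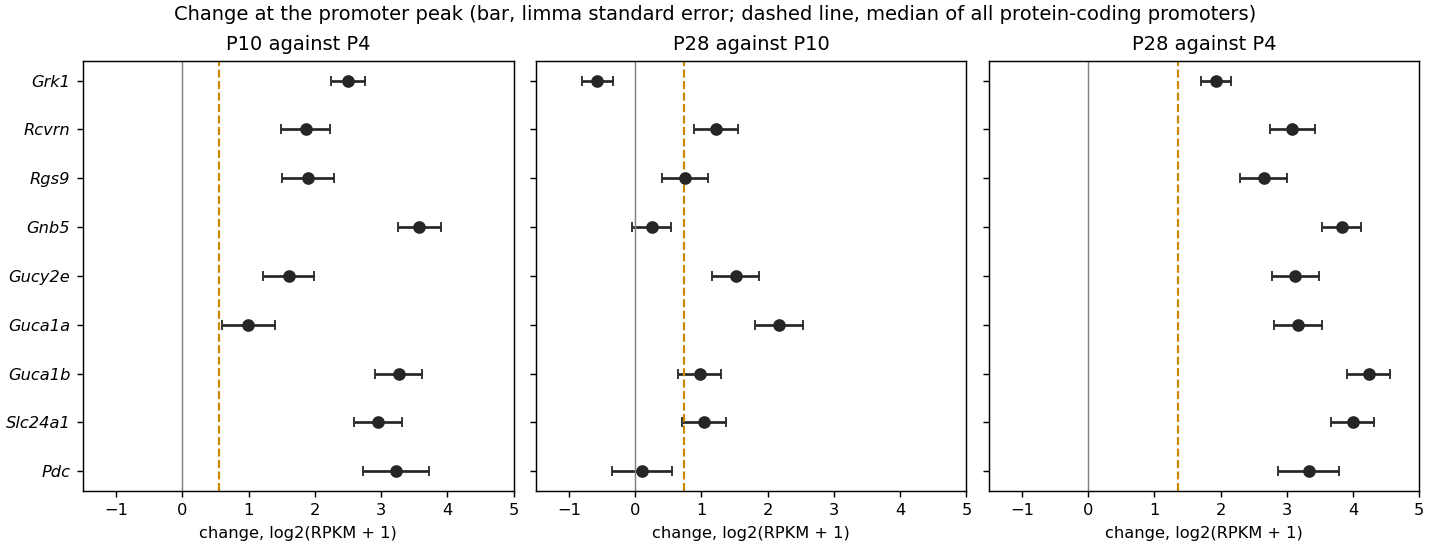
Change in H3K18La (log2(RPKM + 1), horizontal axis) at the promoter peak of the 9 genes (vertical axis) for each pair of ages, with limma standard errors as bars and the median of all protein-coding promoters as a dashed line. Grk1 is the gene below 0 from P10 to P28, and Guca1a and Gucy2e are the genes with the smallest rise to P10 and the largest from P10 to P28.

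The order of the promoter levels changed between ages. At P4 Grk1 stood above the rest in both libraries (mean 7.55 RPKM), and the 7 genes from Rgs9 down to Gnb5 overlapped each with its neighbour. At P10 Grk1 (47.5 ± 4.30, SD, n = 2) was followed by Guca1b, Gnb5, Pdc, Rgs9, Slc24a1, Gucy2e, Rcvrn and Guca1a, with Guca1a last at 4.21 ± 0.94. At P10 Guca1b overlapped Gnb5, Pdc overlapped Rgs9, and the genes from Slc24a1 to Guca1a overlapped each with its neighbour, so that Rcvrn and not Guca1a was last in P10 replicate 1. At P28 Guca1b and Grk1 led without being separable (34.7 ± 5.36 and 31.6 ± 2.63, SD, n = 3), Guca1a came next at 22.3 ± 3.17, and the 7 genes from Guca1a to Pdc (13.7 ± 6.42) overlapped each with its neighbour. By its mean, Guca1a had rank 9 at P10 and rank 3 at P28. At P28 every member stood between percentiles 89.4 and 99.5 of the protein-coding promoters by its mean.

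Ratios of a pair of peaks within a library are free of the scaling between libraries. They are given as a description, without a test, for pairs chosen after the values had been seen. Grk1 had 288.9% to 1252% of the Guca1a promoter level in the P4 and P10 libraries and 132% to 150.4% in the P28 libraries. As log2 ratios of reads per base with 1 read added, these were 2.62 and 1.31 at P4, 2.98 and 3.39 at P10, and 0.52, 0.59 and 0.40 at P28. The ratio of Guca1b to Guca1a was 1.23 and 2.57 at P10, and 0.52, 0.80 and 0.59 at P28. For Gnb5 over Gucy2e it was 1.01 and 1.66 at P10 and -0.16, 0.12 and -0.07 at P28. In these 3 ratios P10 lay above P28 without overlap, whatever the scaling between libraries, although the Guca1a promoter held only 3 and 5 reads at P10 and 2 and 5 at P4.

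**Figure D3:**
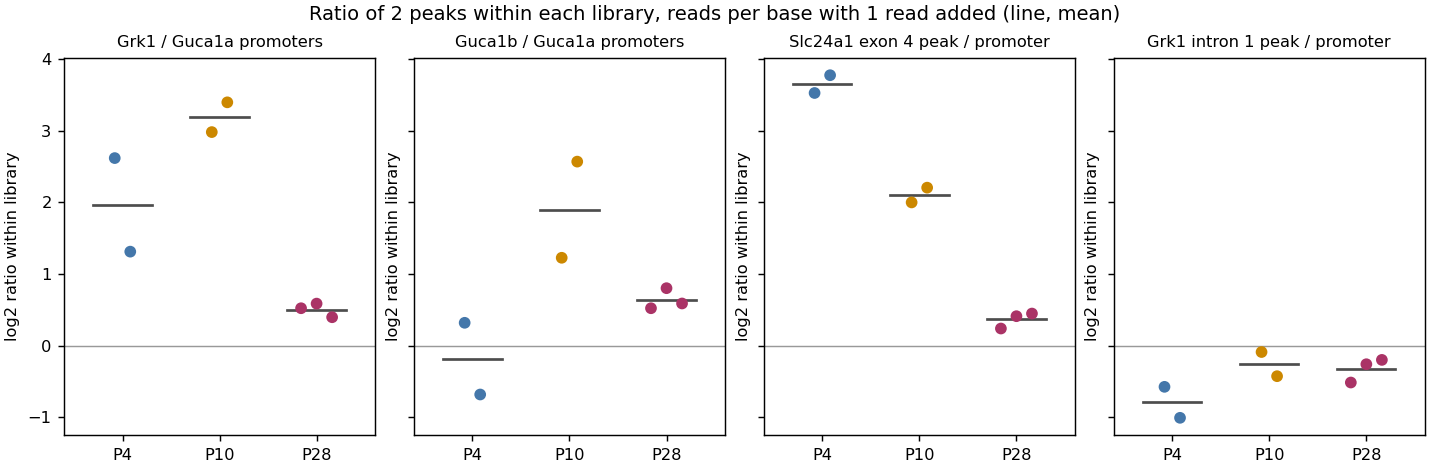
Log2 ratio of 2 peaks within each library (vertical axis) at P4, P10 and P28 (horizontal axis), from reads per base with 1 read added. Points are libraries and lines are means, and P4 points rest on few reads and on the read added (Guca1b had 1 read in each P4 library, the Slc24a1 promoter 1 and 0). Grk1 over Guca1a was 2.98 and 3.39 at P10 and 0.40 to 0.59 at P28, whereas the ratio of the Grk1 intron peak to the Grk1 promoter overlapped between those ages.

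Over all 46 peaks, 25 rose from P4 to P28 (18.9% of the 108253 peaks did), 14 rose from P4 to P10 (11.4%) and 22 passed over the 3 ages (24.6%). Without P28 replicate 3 these counts were 14, 10 and 14, and those under the other settings are given below. Of the 46, 31 had 3 reads or fewer in each P4 library, so the choice of peaks bears on their rises as at the promoters. The 36 peaks outside promoters belonged to 8 of the genes. From P4 to P28, 15 of the 36 rose, against 16.6% of all peaks outside promoters, and 0 fell (limma), against 4.84%. At an unadjusted p under 0.05, 1 of the 36 was lower, as were 13153 of all 91109 such peaks. From P4 to P10, 7 of 36 rose (11.1% of all such peaks) and 0 fell at 0.01 (8.37%). At an adjusted p under 0.05, 2 were lower, each on 0 reads at P10 and 3 or 4 at P4. Of all 91109 such peaks, 13909 were lower at that threshold. None passed from P10 to P28 at 0.01, 9 of 36 had an unadjusted p under 0.05 (31.6% of all such peaks), and the P28 libraries all lay above P10 at 13 of the 36 (29% of such peaks) and below it at 6 (16.2%). Of 8 peaks within 5000 bases of an annotated start 6 rose to P28 (20.7% of all such peaks outside promoters did), and of 28 farther away 9 did (16.1%).

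In Grk1 a peak in intron 1 (chr8:13405871-13406320), 790 bases from the start, had a course like that of the promoter. The promoter peak ends nearby, at position 13405486, so the pair may be parts of 1 region of signal and not separate observations. The intron peak had 4.04 and 2.65 RPKM at P4, 44.1 and 31.5 at P10, and 19.8, 26.2 and 29.6 at P28. There too P10 lay above P28, at 150.1% of its mean. The change to P10 was 3.16 ± 0.32 (SE, adjusted p = 0.000456). Within libraries this peak stood at 70.99% to 87.4% of the promoter at P10 and 68.2% to 86.2% at P28.

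Slc24a1 had its strongest H3K18La far inside the gene, not at the promoter. A peak of 3213 bases over exon 4 of 10 (chr9:64933699-64936911) had 4.38 and 3.34 RPKM at P4, 27.5 and 42.2 at P10, and 16.0, 22.1 and 26.8 at P28. It exceeded the promoter in every library, and both P10 libraries lay above all P28 libraries. The change was 2.86 ± 0.34 (SE) to P10 (adjusted p = 0.000714) and -0.66 ± 0.31 from P10 to P28 (adjusted p = 0.169). P10 was 161% of P28 here and 45.7% at the promoter of the same gene. Within libraries the log2 ratio of this peak to the promoter was 2.00 and 2.20 at P10 and 0.24, 0.41 and 0.45 at P28, without overlap. At P4 the promoter held 1 and 0 reads, against 31 and 18 in this peak, so the ratio there is set by the read added and is not given.

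Next to it, in intron 4 (chr9:64932814-64933561), Slc24a1 had 0.607 and 0.798 RPKM at P4, 19.3 and 16.9 at P10, and 10.2, 12.7 and 16.2 at P28, again with P10 above P28. Another Slc24a1 peak over exon 6 (chr9:64931207-64931862) had 4.16 and 0.91 RPKM at P4, 13.8 and 20.4 at P10, and 12.4, 19.9 and 19.5 at P28, where P10 and P28 overlapped. All of these passed against P4 at both later ages (adjusted p from 0.000174 to 0.0039), but not in every alternative fit. Without either P4 library the exon 4 peak did not pass at P28, and without P4 replicate 2 it did not pass at P10. The exon 6 peak passed in 8 of 18 fits at P10 and 11 of 18 at P28, and failed at both ages without P4 replicate 2, P28 replicate 2 or P28 replicate 3. A small peak over exon 2 stayed at 5.20 RPKM or below in all libraries.

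**Figure D4:**
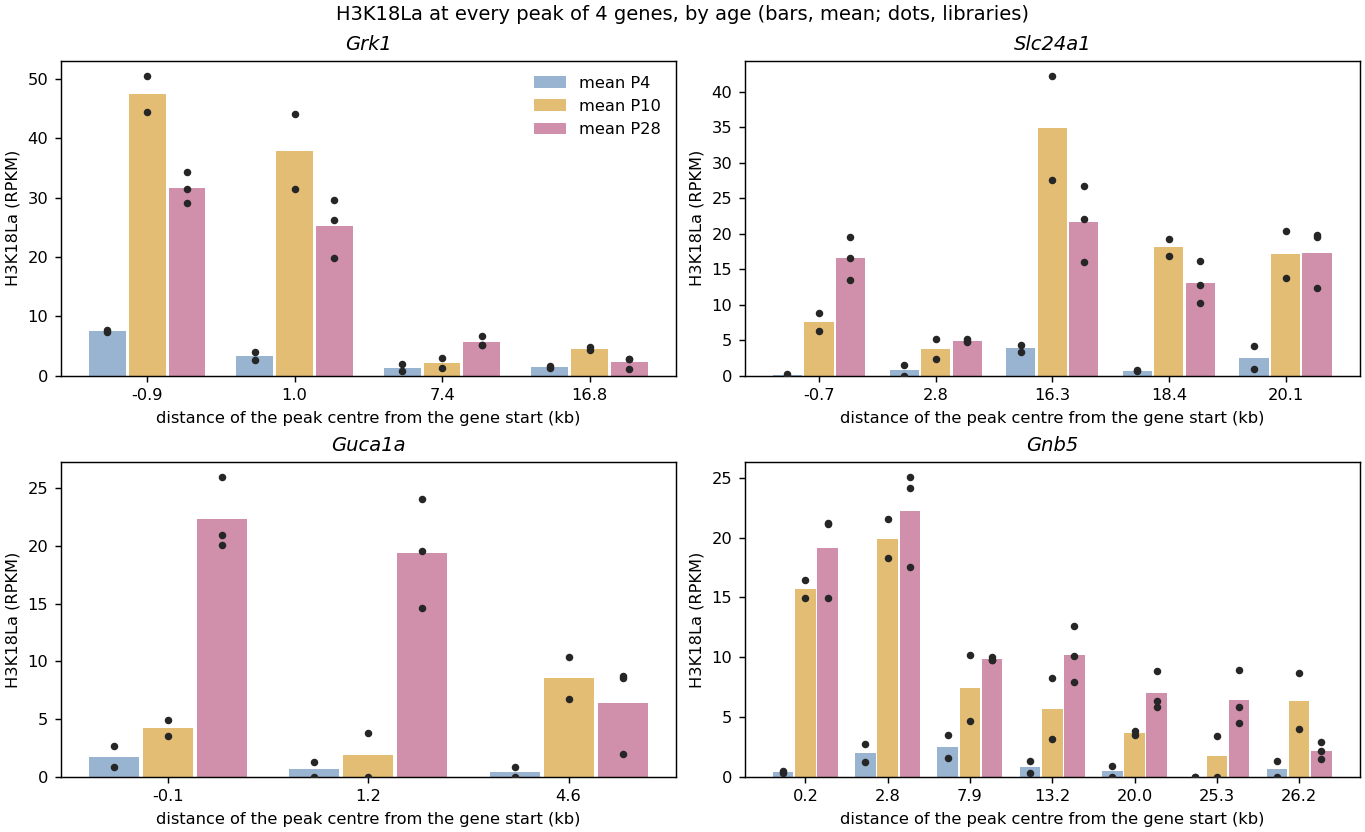
H3K18La (RPKM, vertical axis, each panel on its own scale) at every peak of Grk1, Slc24a1, Guca1a and Gnb5 in the order of its centre's distance from the gene start (kb, horizontal axis, not to scale). Bars are means by age and dots are libraries. In Slc24a1 the P10 bar is below the P28 bar at the promoter and above it at the exon 4 peak, 34.9 against 21.6 RPKM.

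Guca1a also held 2 peaks in intron 1. Near the promoter (chr17:47398816-47399855), it had 1.31 and 0 RPKM at P4, 0 and 3.79 at P10, and 14.6, 19.6 and 24.1 at P28, so that P10 reached 9.76% of P28. Like the promoter, this peak had few reads before P28 (3 and 0 at P4, 0 and 5 at P10), with a pooled read ratio of P28 to P10 of 7.52 (3.20 to 23.3) and an adjusted p of 0.0163. Farther into intron 1, toward the end of the gene and Guca1b (chr17:47395737-47396269), it had 0.852 and 0 RPKM at P4, 6.77 and 10.4 at P10, and 1.97, 8.53 and 8.75 at P28. P10 and P28 overlapped there, on 2 and 7 reads at P10.

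Upstream of Guca1b, 3005 bases before its start and annotated as just downstream of a neighbouring gene, a peak (chr17:47381463-47382388) also rose from P4 to P28. It had 0.491 and 1.93 RPKM at P4, 40.9 and 16.2 at P10, and 30.3, 34.8 and 42.5 at P28. The change to P28 was 4.13 ± 0.42 (SE, adjusted p = 0.000179). One P10 library lay within the P28 range and the other below it, and within libraries this peak stood at 336.8% and 67.7% of the Guca1b promoter at P10.

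In Gnb5 a peak in intron 1 (chr9:75308333-75309841) moved with the promoter, with 1.204 and 2.77 RPKM at P4, 21.5 and 18.3 at P10, and 17.6, 24.2 and 25.1 at P28. Farther into the gene 4 more Gnb5 peaks had P28 means of 2.19 to 10.2 RPKM. Of these, 3 passed against P4 at P28, where 16.6% of all peaks outside promoters rose. The last of the 4, in intron 4, had 2.89, 2.17 and 1.52 RPKM at P28, below both P10 libraries (3.98 and 8.68, which is 1 and 5 reads).

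Rgs9 had the most peaks, 13 outside its promoter, and little of the mark in them, with P28 means of 0.981 to 7.71 RPKM. Of the 13, 1 passed from P4 to P28, where 16.6% of all peaks outside promoters rose. It was an intergenic peak 13961 bases before the start (chr11:109312090-109312584). This peak had 0.918 and 0 RPKM at P4, 7.29 and 1.59 at P10, and 5.30, 8.07 and 9.77 at P28. In 10 of the 13 each P4 library had 3 reads or fewer, and in 11 each P10 library did. A peak beyond the end of the gene (chr11:109221218-109221833) was the single member peak with both P4 libraries above all P28 libraries, with 2.95 and 7.75 RPKM at P4, 2.93 and 1.28 at P10, and 1.28, 2.10 and 1.96 at P28, and its change of -1.09 to P28 did not pass (adjusted p = 0.0896).

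Of the 6 Pdc peaks outside its promoter 3 rose to P28, where 16.6% of all peaks outside promoters did. The widest, an intergenic peak 4743 bases upstream (chr1:150312762-150314674), had 0.713 and 0.936 RPKM at P4, 9.44 and 4.53 at P10, and 4.94, 12.1 and 12.5 at P28. Its lowest P28 value was in the batch 2 library, which was also the lowest P28 library at all 9 promoters. The Rcvrn peaks outside the promoter, in an intron and in a 3' UTR of the overlapping transcripts, had P28 means of 9.58 ± 0.91 and 12.8 ± 2.86 RPKM (SD, n = 3), and the intron peak passed against P4 (adjusted p = 0.0066).

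Other genes of the pathway were taken from fixed lists. Of 7 genes of the activation cascade with a promoter peak, 7 rose from P4 to P10 (12% of all protein-coding promoters) and 7 from P4 to P28 (33.8%), with median changes of 2.56 and 2.46, and the members' medians were 2.50 and 3.16. Cngb1, a subunit of the cyclic GMP-gated channel, had 3.36 and 1.47 RPKM at P4, 14.8 and 27.2 at P10, and 19.4, 28.4 and 32.5 at P28. Of 4 other recovery genes with a promoter peak, 3 rose to P28, beside the same 33.8%: Rd3, an inhibitor of the retinal cyclases, by 2.47, Gucy2f, the second retinal cyclase, by 2.32, and the cone arrestin Arr3 by 1.72. Slc24a2, an exchanger of cones, had 2.98 and 2.93 RPKM at P4, was listed at 0 in both P10 libraries and had 3.23, 3.02 and 4.39 RPKM at P28. It was lower at P10 than at P4 (adjusted p = 0.00834, limma), on 14 reads at P4 and 0 at P10, so that the size of the fitted change is set by the pseudocount. Its difference from P4 to P28 was 0.19 (adjusted p = 0.73).

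**Figure D5:**
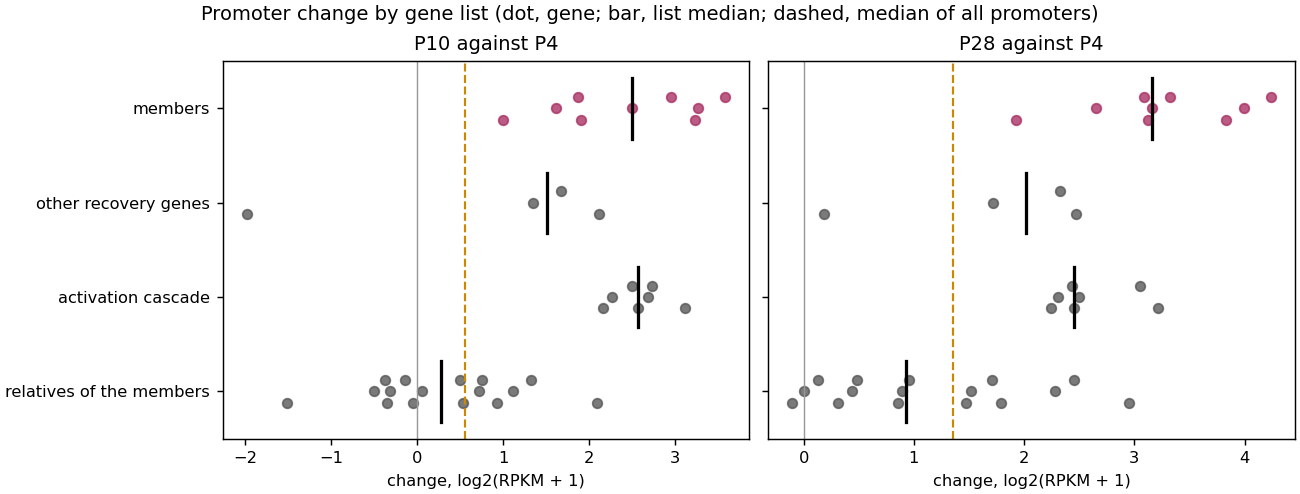
Change in H3K18La at the promoter (log2(RPKM + 1), horizontal axis) from P4 to P10 and from P4 to P28 for the members and 3 lists of related genes (vertical axis). Dots are genes, short bars list medians and the dashed line the median of all protein-coding promoters. The members' medians are 2.50 and 3.16 and those of the relatives 0.28 and 0.92.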

How the data were processed

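The authors aligned paired CUT&Tag reads to GRCm38, called peaks with MACS, kept those seen in at least 2 of 3 replicates of an age, merged them over the 3 ages and annotated them with ChIPseeker 1.34.1. The series given here holds fewer libraries than that at P4 and P10, namely 2 each. The deposited values are RPKM per merged peak, with library sizes the authors normalised on large genomic windows with csaw. The authors tested the ages with edgeR 3.40.2. The authors' own table of fold changes, p-values and FDR was not used. Reads were recovered as RPKM times width and library size, and 100% came out whole within 0.01 of a read. Depth per library is given with the report. Levels were tested with limma 3.58.1 in R 4.3.3 on log2(RPKM + 1), which understates the change of low peaks, in one fit of all 7 libraries and 108253 peaks (empirical Bayes with trend, Benjamini-Hochberg, threshold 0.01). This differs from the authors' count model because RPKM is not a count. The script was tested on simulated data. Intervals of read ratios cover counting error only. The labels name no animals, so p-values measure the spread between these libraries. The named genes are all members with a promoter peak, and their other peaks where described. Members and gene lists were chosen with earlier results of these data known. No 2 libraries held identical values. Promoter windows are RefSeq GRCm38.p6. The alternatives were 18 other fits (scalings, pseudocounts, filter, voom, thinning, batch, replicate number and left-out libraries).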

Additional observations from a re-analysis of the deposited data

How the results depend on the processing

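Over 18 alternative fits the 9 promoters stayed above P4 at P28 and at P10 in each fit. The number passing was 9 at P28, 5 with libraries thinned to the smallest one and 8 to 9 with 1 library left out, and at P10 it was 7, 4 with quantile normalization, 2 thinned and 4 to 7 with 1 library left out. Of the 46 peaks, 25 passed from P4 to P28, 13 when scaled to reads in peaks, 5 thinned, and 13 to 32 with 1 library left out (14 without P4 replicate 1, 13 without P4 replicate 2, 14 without P28 replicate 3, 17 without P28 replicate 2). From P4 to P10, 14 passed, 23 at an adjusted p under 0.05, 8 with quantile normalization, 2 thinned, and 8 to 18 with 1 library left out. From P10 to P28, 0 passed, 5 at an adjusted p under 0.05, 2 with a pseudocount of 5, 2 with median centring, 3 with limma voom on reads, and 0 to 6 with 1 library left out, the 6 being without P10 replicate 2. Over the 3 ages 22 passed, 34 at an adjusted p under 0.05, 14 with a pseudocount of 0.1, 12 scaled to reads in peaks, 2 thinned, and 6 to 33 with 1 library left out. The shares of all peaks passing in these alternative fits are not given, so the counts do not set the members apart. The causes were not tested, and thinning leaves fewer reads.

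Directions changed at small differences. From P10 to P28 the Pdc promoter went from 0.10 to -0.089 scaled to reads in peaks, -0.17 with median centring, -0.0067 with quantile normalization, -1.48 thinned, -0.19 with a replicate block, and -0.19 to 0.50 with 1 library left out. The Slc24a1 exon 6 peak went from 0.01 to -0.18, -0.26 and -0.054 under the same scaling, centring and quantile settings, -0.036 with voom, -0.089 with the block and -0.26 to 0.28 with 1 library left out. The Gnb5 promoter was -0.022 with median centring, the Gnb5 intron 1 peak -0.049 scaled, -0.13 centred and -0.93 thinned, and the further Gnb5 promoter -0.23 thinned and -0.036 to 0.95 with 1 library left out. The peak upstream of Guca1b ranged from -0.20 to 1.09 with 1 library left out. From P4 to P10 the Guca1a intron 1 peak near the promoter was -0.054 scaled and -0.60 to 1.66 with 1 library left out.

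Replicate numbers did not pair the libraries (correlations of deviations of 0.0393, -0.000441 and 0.0426 between ages). With a replicate block 9 and 7 promoters passed at P28 and P10, and 20, 14 and 0 of the 46 peaks passed in the 3 comparisons, 16 over the ages. Depth limits the low end: 3 reads at the median peak width correspond to 7.15 RPKM in P10 replicate 1 and 0.244 in P28 replicate 2.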

Other observations

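The relatives of the members, genes of the same families chosen as used mainly outside photoreceptors, had smaller median changes in H3K18La than the members. The members' medians were 3.16 from P4 to P28 and 2.50 from P4 to P10. Of 16 relatives with a promoter peak, of 27 listed, 3 rose from P4 to P28 and 1 from P4 to P10 (limma, adjusted p under 0.01), where 33.8% and 12% of protein-coding promoters did, with median changes of 0.92 and 0.28. Hpcal1, a calcium sensor of the recoverin family, had 1.63 and 1.84 RPKM at P4, 9.26 and 12.1 at P10, and 15.6, 21.1 and 24.9 at P28, and its rise to P28 was 2.96 ± 0.30 (SE, adjusted p = 0.00018, limma). Hpcal4, of the same family, had 1.76 and 0.662 RPKM at P4, 2.00 and 6.12 at P10, and 9.02, 11.4 and 11.97 at P28. Grk5, a kinase of the Grk1 family that acts on other receptors, had 1.65 and 0.721 RPKM at P4, 2.18 and 2.86 at P10, and 8.87, 7.94 and 11.7 at P28. The difference between the lists was not tested.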
